A study of Homo sapiens with 4 samples.

Results

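Fatty acid synthesis and desaturation was followed through 10 genes in KP4 cells, a human line of pancreatic ductal adenocarcinoma. They were SCD, FASN, ACACA, ACLY, ELOVL5, ELOVL6, FADS1, FADS2, ACSS2 and ACSL3, taken as the 10 rows with these names among the 60651 gene rows of the stranded count table. All 10 passed the filter on low counts and were among the 15636 genes tested.

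Fatty acids are built in the cytosol from acetyl-CoA. ACLY makes acetyl-CoA from citrate and ACSS2 makes it from acetate, ACACA turns it into malonyl-CoA, and FASN joins these units into palmitate. ELOVL6 and ELOVL5 lengthen the chain, SCD sets the double bond of oleate, FADS1 and FADS2 add double bonds to dietary polyunsaturated acids, and ACSL3 activates free acids to acyl-CoA. Most of these genes are known targets of the SREBP transcription factors, the products of SREBF1 and SREBF2, and many tumour cells keep the pathway active.

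The cells were E5 cells, which the study's title calls resistant, and control cells of the same line, grown in DMEM with serum. For 96 h each kind was given FOLFIRINOX, here 25 nM SN-38 (irinotecan's active metabolite) with 5 µM oxaliplatin and 10 µM of what the labels write as 5-F, or DMSO as vehicle. The groups were thus E5 cells with FOLFIRINOX, E5 cells with vehicle, control cells with FOLFIRINOX and control cells with vehicle, 1 GEO sample each, whose 3 numbered columns were read as libraries (n = 3). The design text also speaks of 5 cycles of either treatment, so what the E5 cells in vehicle had met before is not settled, and whether E5 is 1 clone is not stated. Nothing says that the 3 columns come from separate cultures, so the p-values set group differences against a spread between columns that may be technical.

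Libraries held 7359034 to 21775030 reads in genes, and the 3 libraries of each group lay together in a principal component analysis, whose PC1 took 55% and PC2 35.1% of the variance. Of the ductal and epithelial markers, KRT8 and KRT18 carried nearly all of the summed level, which was 664 to 736 FPKM (the authors' values, scaled by gene length and depth) in E5 cells with FOLFIRINOX, 617 to 669 in E5 cells with vehicle, 367 to 410 in control cells with FOLFIRINOX and 154 to 180 in control cells with vehicle. The epithelial markers CDH1 and EPCAM stayed at or under 0.9 and 1.23 FPKM in all libraries, and VIM, a mesenchymal marker, reached 1424 FPKM. Each of the 5 adipocyte markers stayed under 1 FPKM. Leukocyte markers summed to 18.8 to 28 FPKM in E5 cells with FOLFIRINOX, 12 to 14.6 in E5 cells with vehicle, 60.6 to 77.6 in control cells with FOLFIRINOX and 17.8 to 20.2 in control cells with vehicle, mostly from PTPRC in control cells with vehicle and otherwise from CD68, which had only 32 reads over all libraries of the count table, while CD3E had 0 counts. Hepatocyte markers summed to 11.1 to 14.3 FPKM in E5 cells with FOLFIRINOX, 17.3 to 18.6 in E5 cells with vehicle, 4.23 to 6.06 in control cells with FOLFIRINOX and 1.53 to 2.94 in control cells with vehicle, nearly all from SERPINA1, while ALB stayed at or under 0.43 FPKM and TTR had 0 counts. The 3 endothelial, 4 fibroblast and 3 acinar markers summed to at most 1.64, 6.02 and 0.51 FPKM in any library, the first 2 of these sums being highest in E5 cells with vehicle. These marker levels move with the groups, and their part in the results was not tested. In bulk libraries, fewer cells of a kind and less RNA per cell cannot be told apart.

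Promoter sequences of 5 of the genes are printed. SCD, ACLY, FADS1 and FADS2 were lower with the drug, and ELOVL6 did not pass the drug test. FADS1 and FADS2 overlap on opposite strands. Each sequence runs 5′ to 3′ on the gene's strand over the 250 bases before and the 50 bases after the annotated start, from RefSeq on GRCh38.p14, and capitals mark CCAAT or its complement ATTGG.
SCD, chr10:100346983-100347282, plus strand: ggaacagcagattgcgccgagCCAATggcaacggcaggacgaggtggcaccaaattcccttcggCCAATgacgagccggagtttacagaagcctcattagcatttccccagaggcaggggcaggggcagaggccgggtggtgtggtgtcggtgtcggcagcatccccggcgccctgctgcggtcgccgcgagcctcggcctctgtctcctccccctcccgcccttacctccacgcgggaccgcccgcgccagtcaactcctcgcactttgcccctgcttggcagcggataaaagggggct
ACLY, chr17:41918973-41919272, minus strand: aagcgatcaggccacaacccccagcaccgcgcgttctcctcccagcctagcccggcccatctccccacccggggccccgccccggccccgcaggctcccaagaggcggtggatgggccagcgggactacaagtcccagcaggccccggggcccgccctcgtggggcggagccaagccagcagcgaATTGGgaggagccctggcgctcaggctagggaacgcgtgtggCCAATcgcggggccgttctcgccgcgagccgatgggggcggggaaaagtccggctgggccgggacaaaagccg
ELOVL6, chr4:110198566-110198865, minus strand: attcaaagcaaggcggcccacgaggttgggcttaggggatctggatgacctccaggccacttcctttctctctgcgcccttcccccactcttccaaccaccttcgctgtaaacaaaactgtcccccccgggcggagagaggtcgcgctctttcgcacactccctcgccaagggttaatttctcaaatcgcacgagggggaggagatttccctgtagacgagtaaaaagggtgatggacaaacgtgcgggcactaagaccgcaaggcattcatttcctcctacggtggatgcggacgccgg
FADS1, chr11:61816954-61817253, minus strand: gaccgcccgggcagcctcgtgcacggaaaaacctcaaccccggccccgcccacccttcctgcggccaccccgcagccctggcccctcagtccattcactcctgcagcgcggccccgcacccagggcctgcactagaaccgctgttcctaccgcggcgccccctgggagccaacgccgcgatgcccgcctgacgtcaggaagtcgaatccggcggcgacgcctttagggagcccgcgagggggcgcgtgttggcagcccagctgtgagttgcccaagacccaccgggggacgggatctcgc
FADS2, chr11:61816154-61816453, plus strand: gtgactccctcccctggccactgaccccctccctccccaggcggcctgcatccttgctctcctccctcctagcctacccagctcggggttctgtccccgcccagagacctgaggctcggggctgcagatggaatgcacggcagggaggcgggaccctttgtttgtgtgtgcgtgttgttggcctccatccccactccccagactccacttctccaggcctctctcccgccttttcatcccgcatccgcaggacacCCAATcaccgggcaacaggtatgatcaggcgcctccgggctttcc

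RefSeq gave 14 such windows for 9 of the 10 genes, and FASN had no entry. Searched on both strands, CCAAT, the letters bound by NF-Y, was in 9 of the 14 windows and in 34.6% of all 34943 promoter windows. The GC box GGGCGG, bound by SP1, was in 11 of the 14 and in 44.9% of all. The E-box CACGTG was in 1, that of ELOVL5, and in 7.23% of all, and the sterol element letters TCACNCCAC were in 0 of the 14 and in 1.12% of all. A window counted once per motif, and no CCAAT, GC box or E-box match of the 14 windows shared letters with a match of another motif. By gene, CCAAT was found in 7 of the 9, all but ELOVL6 and FADS1, and a GC box in 8 of the 9, all but ELOVL5. FADS2 had CCAAT only in the window printed, where it began at base 6 counted from the annotated start. ACACA, ACSS2 and FADS2 each also had a window without CCAAT. No share by gene was worked out over all genes, and genes with more windows have more places for a match. The windows of ACLY overlap and hold the same CCAAT and GC box matches, so the window counts include these sites more than once. These are letter matches within short windows and say nothing of binding in these cells.

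With FOLFIRINOX, 9 of the 10 genes fell in E5 cells and 9 of the 10 in control cells, and the gene that did not pass the test was ELOVL6 in both. SCD, the desaturase that makes oleate, changed most of the 10, being 5.21-fold lower with the drug in E5 cells and 6.3-fold lower in control cells. FASN and FADS2 were also at least 2-fold lower in E5 cells, and ACACA, FASN, ACSL3 and ACLY in control cells. In edgeR's quasi-likelihood test with Benjamini-Hochberg adjustment at 0.05, 52.3% of all tested genes were called in E5 cells, 27.3% lower and 25% higher with the drug. In control cells 65.3% were called, 32.7% lower and 32.6% higher. Over the 10 genes the median log2 fold change was -0.847 in E5 cells, where that of all tested genes was 0.00341, and -0.899 in control cells, where that of all genes was 0.00438. At least 2-fold lower were 3 of the 10 in E5 cells, as were 4.27% of all genes, and 5 of the 10 in control cells, as were 8.19% of all genes. For the 9 genes the FOLFIRINOX and vehicle libraries did not overlap in either kind of cell, with the drug libraries lower, as for 30.7% of all tested genes in E5 cells and 33.5% in control cells.

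**Figure D1:**
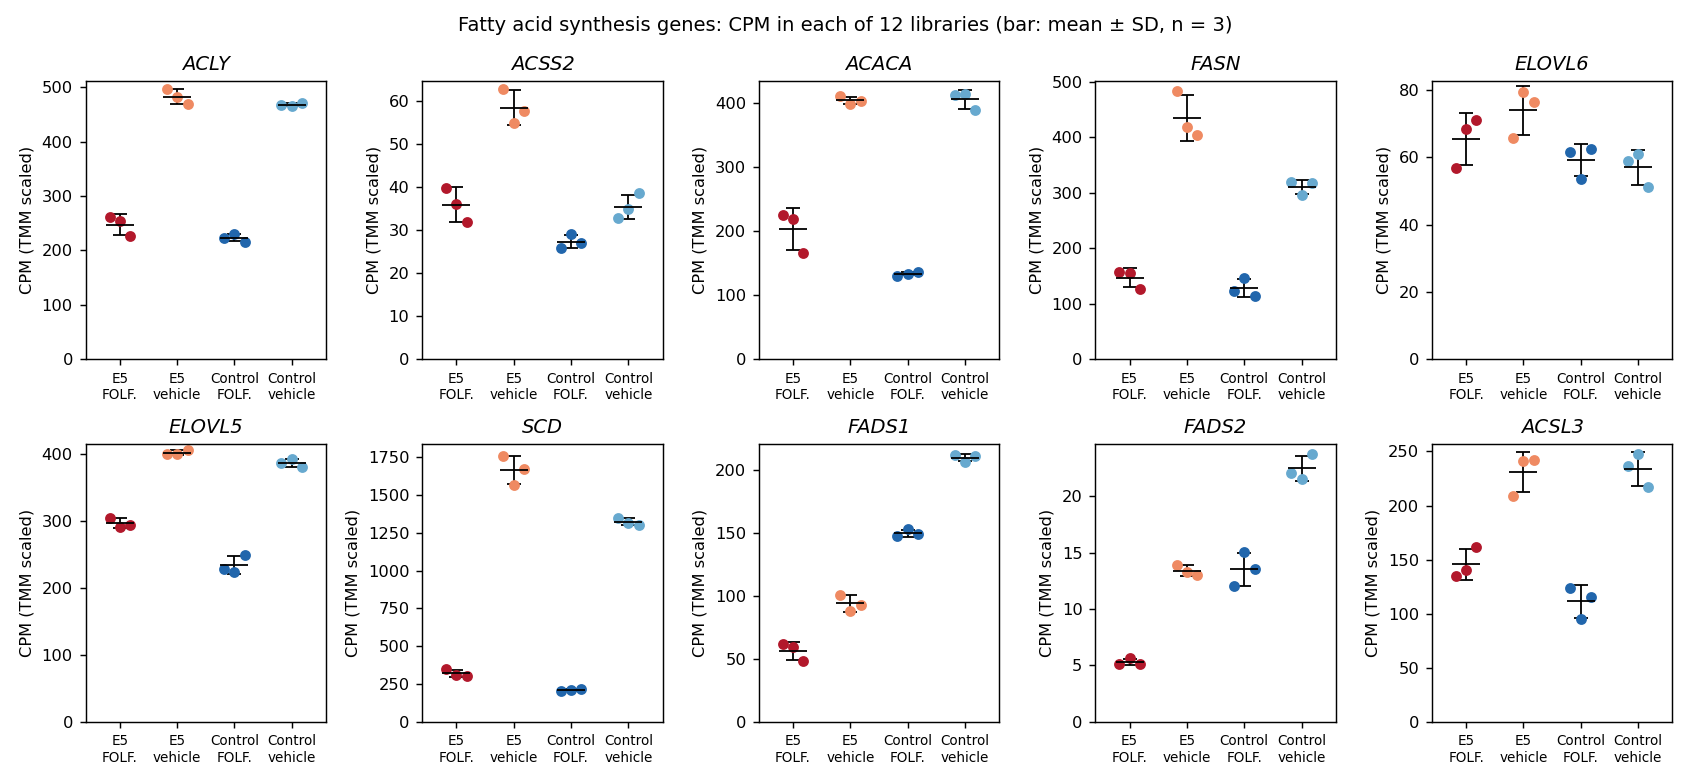
Level of each of the 10 genes in the 12 libraries, in CPM (gene reads scaled to library size with TMM factors), with 1 point per library and bars for the mean and SD of each group. SCD sits at 301.3 to 346.4 CPM in E5 cells with FOLFIRINOX and at 1569 CPM or more in E5 cells with vehicle, while the ELOVL6 groups lie close together.

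**Figure D2:**
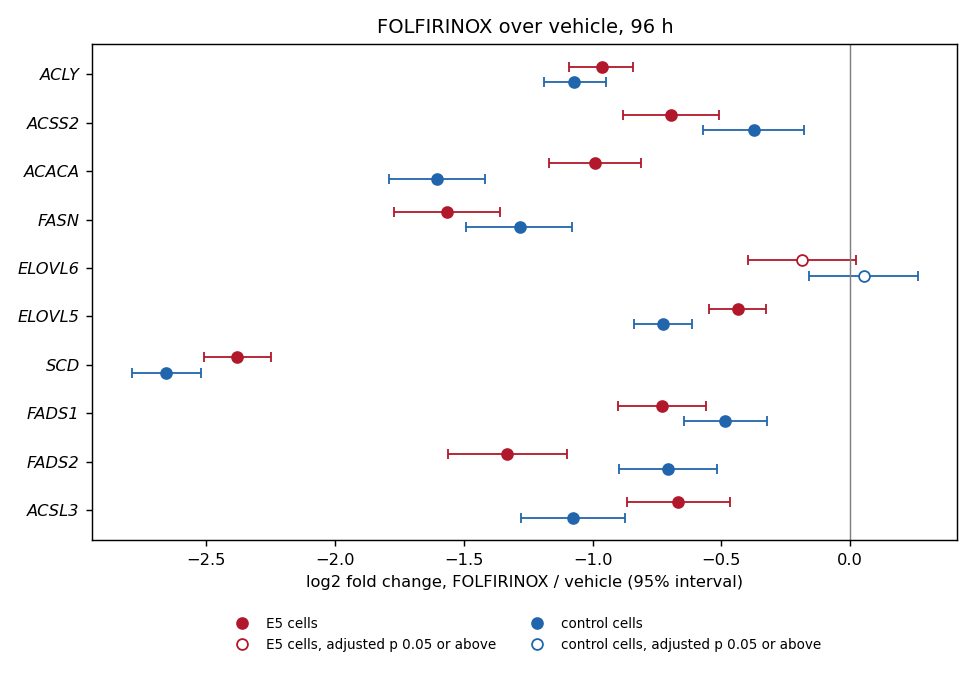
Log2 fold change of FOLFIRINOX against vehicle for the 10 genes in E5 cells and in control cells, with 95% intervals from edgeR's quasi-likelihood fit of 12 libraries. The SCD values of -2.38 in E5 cells and -2.66 in control cells lie farthest from 0, and the open ELOVL6 points were not called.

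Acetyl-CoA is made by ACLY and ACSS2. ACLY, the citrate-cleaving enzyme (chr17:41866917-41930542, GRCh38), had 261.5, 254.6 and 225.9 CPM in FOLFIRINOX-treated E5 cells, against 497.5, 481.8 and 469.5 CPM in vehicle-treated E5 cells. In control cells it had 223.3, 229.2 and 216.1 CPM with FOLFIRINOX, against 468.2, 465.8 and 470.8 CPM with vehicle. No drug library reached a vehicle library, and the drug-treated E5 and control libraries overlapped. ACLY fell with the drug, with log2 fold changes of -0.96 ± 0.0584 (SE; adjusted p = 1.66e-09) in E5 cells and -1.07 ± 0.0586 (SE; adjusted p = 1.38e-10) in control cells. The difference between these responses was 0.11 ± 0.082 (SE), with a 95% interval of -0.0674 to 0.279 and adjusted p = 0.371.

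ACSS2, the acetate-activating enzyme (chr20:34872146-34927962), had 39.9, 36 and 31.8 CPM in FOLFIRINOX-treated E5 cells, against 62.8, 54.9 and 57.7 CPM in vehicle-treated E5 cells. Control cells showed 25.9, 29 and 27 CPM with FOLFIRINOX, against 32.9, 34.9 and 38.5 CPM with vehicle. E5 cells with vehicle were the high group and control cells with FOLFIRINOX the low one, and the drug-treated E5 libraries overlapped the vehicle-treated control libraries. ACSS2 fell with the drug, with log2 fold changes of -0.70 ± 0.0891 (SE; adjusted p = 6.15e-06) in E5 cells and -0.37 ± 0.0927 (SE; adjusted p = 0.00198) in control cells. On the authors' FPKM values the fall in control cells was not called, at -0.06. E5 cells had more ACSS2 than control cells, with log2 fold changes of 0.39 ± 0.0921 (SE; adjusted p = 0.00176) under FOLFIRINOX and 0.71 ± 0.0897 (SE; adjusted p = 5.07e-06) under vehicle, of which the value under FOLFIRINOX was not called on FPKM, at 0.10.

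ACACA and FASN carry out the committed step and the building of the chain. ACACA, acetyl-CoA carboxylase 1 (chr17:37084992-37406836), had 224.9, 219.6 and 166.1 CPM in FOLFIRINOX-treated E5 cells, against 411.3, 399.6 and 403.4 CPM in vehicle-treated E5 cells. Control libraries held 130.7, 133.5 and 136.0 CPM with FOLFIRINOX, against 413.9, 415.1 and 389.8 CPM with vehicle. Under FOLFIRINOX all 3 E5 libraries were above all 3 control libraries, whereas the vehicle-treated groups overlapped. ACACA fell with the drug, with log2 fold changes of -0.99 ± 0.0844 (SE; adjusted p = 6.75e-08) in E5 cells and -1.60 ± 0.0863 (SE; adjusted p = 1.1e-10) in control cells. The fall was smaller in E5 cells by 0.61 ± 0.119 (SE; adjusted p = 0.00136), a call that held in all alternatives run.

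FASN, fatty acid synthase (chr17:82078338-82098294), had 157.5, 155.8 and 127.0 CPM in FOLFIRINOX-treated E5 cells, against 482.5, 418.3 and 403.6 CPM in vehicle-treated E5 cells. Levels in control cells were 122.8, 145.5 and 113.8 CPM with FOLFIRINOX, against 318.3, 295.6 and 317.3 CPM with vehicle. All E5 libraries with vehicle were above all control libraries with vehicle, and the drug-treated groups of both kinds of cells overlapped. FASN fell with the drug, with log2 fold changes of -1.56 ± 0.0969 (SE; adjusted p = 2.03e-09) in E5 cells and -1.28 ± 0.097 (SE; adjusted p = 6.14e-09) in control cells. The difference of these responses was -0.28 ± 0.135 (SE), with a 95% interval of -0.569 to 0.00224 and adjusted p = 0.136.

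Of the elongases, ELOVL5 was called lower with the drug in both kinds of cells and ELOVL6 in neither. In E5 cells the 95% intervals of their log2 fold changes overlapped, at -0.549 to -0.326 for ELOVL5 and -0.395 to 0.0232 for ELOVL6. In control cells these intervals were apart, at -0.839 to -0.614 for ELOVL5 and -0.16 to 0.264 for ELOVL6. ELOVL5, which lengthens polyunsaturated acids (chr6:53267398-53349179), had 304.9, 291.9 and 294.4 CPM in FOLFIRINOX-treated E5 cells, against 400.3, 399.9 and 406.4 in vehicle-treated E5 cells. In control cells it had 228.3, 224.2 and 249.4 CPM with FOLFIRINOX, against 387.3, 393.0 and 381.1 CPM with vehicle. No drug library reached a vehicle library, and drug-treated E5 libraries were all above drug-treated control libraries. ELOVL5 fell with the drug, with log2 fold changes of -0.44 ± 0.0528 (SE; adjusted p = 3.33e-06) in E5 cells and -0.73 ± 0.0531 (SE; adjusted p = 4.19e-09) in control cells. The fall was smaller in E5 cells by 0.29 ± 0.0747 (SE; adjusted p = 0.00943), a call that was lost on FPKM values, where the difference was 0.15.

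ELOVL6, which lengthens palmitate to stearate (chr4:110045846-110199199), had 56.7, 68.3 and 71.3 CPM in FOLFIRINOX-treated E5 cells, against 65.8, 79.6 and 76.5 CPM in vehicle-treated E5 cells. Control cells showed 61.5, 53.7 and 62.4 CPM with FOLFIRINOX, against 59, 60.9 and 51.1 CPM with vehicle. The drug and vehicle libraries overlapped in both kinds of cells. Its log2 fold change with the drug was -0.19 ± 0.0989 (SE; 95% interval -0.395 to 0.0232, adjusted p = 0.127) in E5 cells and 0.05 ± 0.1 (SE; 95% interval -0.16 to 0.264, adjusted p = 0.666) in control cells. Without replicate 1 of the E5 vehicle group ELOVL6 was called lower in E5 cells, at -0.26 with adjusted p = 0.0469 by edgeR, and on FPKM values it was called higher in control cells, at 0.39. In E5 cells its FPKM averaged 16.8 ± 3.51 with FOLFIRINOX and 13.8 ± 2.5 with vehicle (SD, n = 3 each), a difference of the opposite sign to that of the counts.

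The desaturase SCD (chr10:100347233-100364826) had 346.4, 311.2 and 301.3 CPM in FOLFIRINOX-treated E5 cells, against 1760, 1569 and 1669 CPM in vehicle-treated E5 cells. Control libraries held 203.8, 208.9 and 216.5 CPM with FOLFIRINOX, against 1349, 1315 and 1305 CPM with vehicle. Vehicle libraries were several times above drug libraries, E5 libraries were above control libraries under either treatment, and no groups overlapped. SCD fell with the drug, with log2 fold changes of -2.38 ± 0.0615 (SE; adjusted p = 8.49e-14) in E5 cells and -2.66 ± 0.0625 (SE; adjusted p = 9.22e-15) in control cells. Only 0.256% of tested genes had a lower value in E5 cells and 0.448% in control cells. The fall was smaller in E5 cells by 0.27 ± 0.0833 (SE; adjusted p = 0.0229). That difference lost its call when library totals alone set the scale, at 0.21, on FPKM values, at 0.17, on the authors' rlog values, at 0.12, and without any 1 of 4 libraries, namely replicate 1 of E5 FOLFIRINOX, replicate 2 of E5 vehicle, replicate 1 of control FOLFIRINOX and replicate 1 of control vehicle.

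The front-end desaturases FADS1 and FADS2 overlap on opposite strands of chromosome 11. The RefSeq start of FADS1, on the minus strand, lies 599 or 800 bases past those of FADS2, on the plus strand, so that the first bases of each gene lie within the other, and the counts were made by strand. FADS1, delta-5 desaturase (chr11:61799627-61829318), had 61.5, 59.3 and 48.3 CPM in FOLFIRINOX-treated E5 cells, against 100.7, 87.9 and 92.8 CPM in vehicle-treated E5 cells. Levels in control cells were 147.0, 152.5 and 148.8 CPM with FOLFIRINOX, against 211.4, 206.0 and 210.6 CPM with vehicle. The 4 groups formed 4 separate levels, with both E5 groups under both control groups. FADS1 fell with the drug, with log2 fold changes of -0.73 ± 0.0808 (SE; adjusted p = 1.27e-06) in E5 cells and -0.49 ± 0.0767 (SE; adjusted p = 3.18e-05) in control cells. E5 cells had less FADS1 than control cells, with log2 fold changes of -1.41 ± 0.0799 (SE; adjusted p = 1.98e-10) under FOLFIRINOX and -1.16 ± 0.0788 (SE; adjusted p = 1.95e-09) under vehicle.

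FADS2, delta-6 desaturase (chr11:61792980-61867354), was counted at low levels, with 5.17, 5.63 and 5.15 CPM in FOLFIRINOX-treated E5 cells, against 13.9, 13.3 and 13 CPM in vehicle-treated E5 cells. In control cells it had 12.1, 15 and 13.6 CPM with FOLFIRINOX, against 22.1, 21.6 and 23.8 CPM with vehicle. E5 cells with FOLFIRINOX were the lowest group, and E5 cells with vehicle lay within the range of control cells with the drug. FADS2 fell with the drug, with log2 fold changes of -1.33 ± 0.109 (SE; adjusted p = 4.69e-08) in E5 cells and -0.71 ± 0.0899 (SE; adjusted p = 2.86e-06) in control cells. The fall was larger in E5 cells, with a difference of -0.62 ± 0.142 (SE; adjusted p = 0.00428). On FPKM values that difference was -0.38 with a pseudocount of 1 and -0.51 with 0.1, and was not called. FADS2 was also lower in E5 than in control cells, with log2 fold changes of -1.38 ± 0.106 (SE; adjusted p = 9.8e-09) under FOLFIRINOX and -0.75 ± 0.0931 (SE; adjusted p = 4.12e-06) under vehicle. FEN1 overlaps FADS2 on the same strand. Reads marked ambiguous were counted apart from genes, but which reads were so marked is not stated, so the level of FADS2 is uncertain to that degree. Same-strand overlaps were also annotated for ACACA (AC244093.1 and HMGB1P24), ELOVL5 (RPS16P5) and FADS1 (MIR1908).

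ACSL3, an acyl-CoA synthetase of the endoplasmic reticulum and lipid droplets (chr2:222860942-222944639), had 134.5, 140.3 and 161.7 CPM in FOLFIRINOX-treated E5 cells, against 209.2, 241.1 and 242.0 CPM in vehicle-treated E5 cells. Control cells showed 124.1, 94.8 and 115.0 CPM with FOLFIRINOX, against 237.0, 247.3 and 216.9 CPM with vehicle. Vehicle groups overlapped between the kinds of cells, and drug libraries were lower in both. ACSL3 fell with the drug, with log2 fold changes of -0.67 ± 0.0946 (SE; adjusted p = 1.84e-05) in E5 cells and -1.08 ± 0.0959 (SE; adjusted p = 4.3e-08) in control cells, the value in control cells being -0.71 on FPKM with a pseudocount of 1. The fall was smaller in E5 cells by 0.41 ± 0.134 (SE; adjusted p = 0.0335). That call was lost with library totals alone, at 0.34, with the replicate number as a block, at 0.41, on FPKM values, at 0.09, and without any 1 of 5 libraries, namely replicate 3 of E5 FOLFIRINOX, replicate 1 of E5 vehicle, replicate 2 of control FOLFIRINOX and replicates 1 and 2 of control vehicle.

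Between E5 and control cells the desaturases FADS1 and FADS2 were lower in E5 cells, and the other genes that passed the test were higher. Under FOLFIRINOX 6 genes were higher in E5 cells, namely ACACA, SCD, ACSL3, ACSS2, ELOVL5 and ACLY, and FADS1 and FADS2 were lower. Of all tested genes 54.3% were called, 26.7% higher and 27.6% lower, and the median over the 10 genes was 0.273 on the log2 scale, where that of all genes was -0.0116. ACACA differed by 0.61 ± 0.0853 (SE; adjusted p = 1.29e-05) and SCD by 0.61 ± 0.0597 (SE; adjusted p = 2.16e-07). ELOVL5 differed by 0.34 ± 0.053 (SE; adjusted p = 3.48e-05), or by 0.19 on FPKM. ACSL3 differed by 0.39 ± 0.0957 (SE; adjusted p = 0.00226), which was not called on FPKM, at 0.13. The ACLY difference of 0.15 ± 0.0584 (SE; adjusted p = 0.0383) was not called in 10 of the alternatives, among them DESeq2 and the fit of the compared groups only, both at 0.15, and the fits without replicate 1 or 2 of E5 FOLFIRINOX or replicate 1 or 3 of control FOLFIRINOX. FASN was not called at 0.20 ± 0.0967 (SE; 95% interval -0.002 to 0.407, adjusted p = 0.0881), but was called without replicate 3 of E5 FOLFIRINOX, at 0.31, without replicate 2 of control FOLFIRINOX, at 0.33, and with no filter on low counts, at 0.25.

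Under vehicle, ACSS2, FASN, ELOVL6 and SCD were higher in E5 than in control cells, FADS1 and FADS2 were lower, and 4 genes were not called. Of all tested genes 44.3% were called, 22.1% higher and 22.2% lower in E5 cells, and the median over the 10 genes was 0.0496, where that of all genes was -0.00894. FASN differed by 0.49 ± 0.0944 (SE; adjusted p = 0.00045) and SCD by 0.33 ± 0.0583 (SE; adjusted p = 0.000172). ELOVL6 differed by 0.38 ± 0.1 (SE; adjusted p = 0.00478), which was not called on FPKM, at 0.29. For ACACA, ACLY, ELOVL5 and ACSL3 the 95% intervals of the log2 difference were -0.181 to 0.171, -0.0777 to 0.166, -0.0563 to 0.166 and -0.215 to 0.182. Each group here also enters a drug comparison, so the comparisons share libraries.

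**Figure D3:**
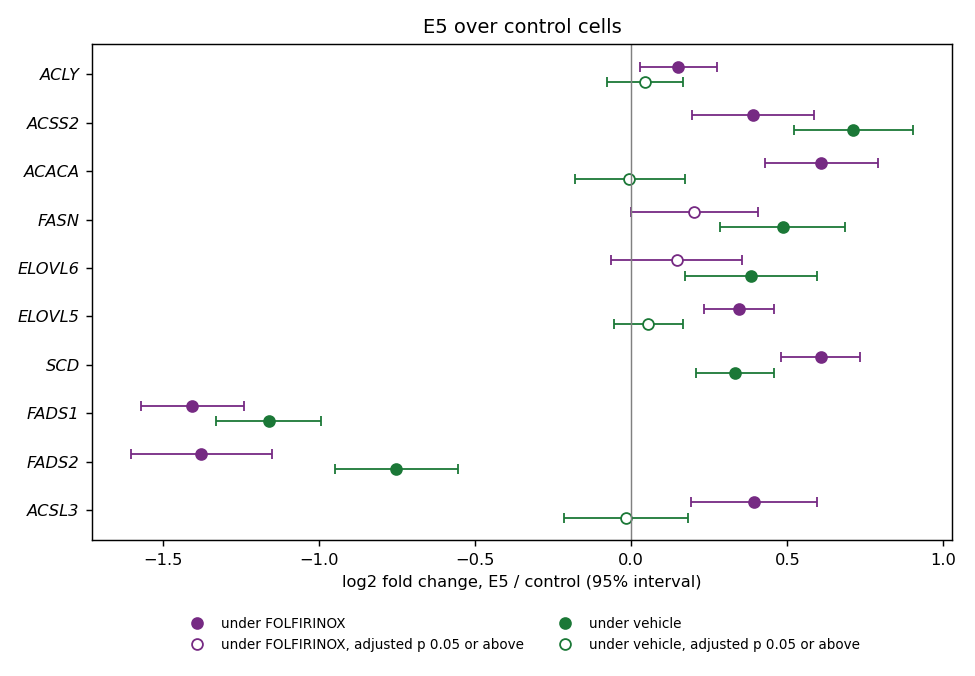
Log2 fold change of E5 against control cells for the 10 genes, under FOLFIRINOX and under vehicle, with 95% intervals from edgeR's quasi-likelihood fit. FADS1, at -1.41 under FOLFIRINOX and -1.16 under vehicle, and FADS2 lie left of 0, whereas SCD, at 0.61 and 0.33, lies to the right, and open points were not called.

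The drug response itself differed between E5 and control cells for 5 of the 10 genes. It was less negative in E5 cells for ACACA, ACSL3, ELOVL5 and SCD, and more negative for FADS2. In the test of that difference 25.7% of all tested genes were called, 13.3% higher and 12.4% lower in E5 cells, and the median over the 10 genes was -0.0658, where that of all genes was 0.00616. FADS1 had a difference of -0.24 ± 0.111 (SE; adjusted p = 0.118), which was -0.13 without replicate 3 of E5 FOLFIRINOX. ELOVL6 had a difference of -0.24 ± 0.141 (SE; adjusted p = 0.234). ACSS2 was not called at -0.32 ± 0.128 (SE; adjusted p = 0.0762), but was called with library totals alone, at -0.39, without replicate 1 of E5 FOLFIRINOX, at -0.41, without replicate 3 of control vehicle, at -0.39, and on rlog values, at -0.23.

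On the authors' FPKM scale, which corrects for gene length, SCD was the most abundant of the 10 under vehicle, at 284.5 ± 16.9 in E5 cells and 225.2 ± 5.4 in control cells (SD, n = 3 each). ELOVL5 came next there, at 127.8 ± 2 in E5 cells and 124.2 ± 2.72 in control cells. ACLY followed, at 100.7 ± 3.65 in E5 cells and 97.9 ± 1.76 in control cells, and these neighbours did not overlap. Under FOLFIRINOX, ELOVL5 was the most abundant, at 100.2 ± 2.58 FPKM in E5 cells and 87.6 ± 4.2 in control cells. SCD averaged 56.8 ± 4.27 FPKM in E5 cells with FOLFIRINOX, overlapping ACLY, and 39.6 ± 1.17 in control cells with FOLFIRINOX, overlapping FADS1. In the middle of the order ACACA, ACSL3 and FASN were apart in E5 cells with vehicle, but ACACA overlapped ACSL3 or FASN in the other groups.

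FADS2 was the lowest of the 10 in all groups, at 2.83 ± 0.655 FPKM in E5 cells with FOLFIRINOX, 5.51 ± 0.246 in E5 cells with vehicle, 6.64 ± 0.906 in control cells with FOLFIRINOX and 9.05 ± 0.261 in control cells with vehicle (SD, n = 3 each). FADS1 ranked just above FADS2 in E5 cells with FOLFIRINOX, at 11.8 ± 1.5 FPKM, whereas in control cells with FOLFIRINOX, at 34.8 ± 5.08 FPKM, it lay among the upper genes next to SCD.

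Summed over the 10 genes, the level was 340 to 375.4 FPKM in E5 cells with FOLFIRINOX, 735.1 to 778 in E5 cells with vehicle, 317.5 to 338.8 in control cells with FOLFIRINOX and 670 to 695.6 in control cells with vehicle. SCD made up 16% of that sum in E5 cells with FOLFIRINOX, 37.6% in E5 cells with vehicle, 12% in control cells with FOLFIRINOX and 33.0% in control cells with vehicle. ELOVL5 took 28.3% in E5 cells with FOLFIRINOX, 16.9% in E5 cells with vehicle, 26.6% in control cells with FOLFIRINOX and 18.2% in control cells with vehicle. The mean share of SCD was thus lower with the drug and that of ELOVL5 higher, in both kinds of cells.

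**Figure D4:**
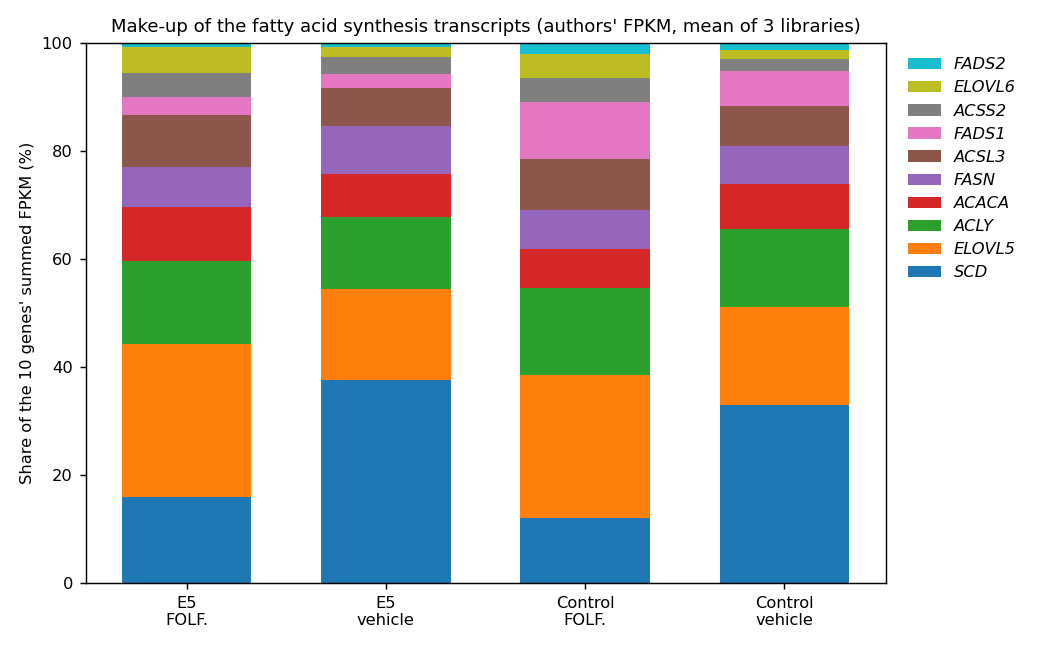
Share of each gene in the summed FPKM of the 10 genes, in percent, as the mean of 3 libraries in each of the 4 groups. SCD takes 16% in E5 cells with FOLFIRINOX and 37.6% in E5 cells with vehicle, and 12% and 33.0% in control cells with the same treatments.

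Ratios within a library do not depend on how libraries are scaled, and are given as a description. The mean log2 ratio of SCD to FASN counts was 1.13 in E5 cells with FOLFIRINOX, 1.94 in E5 cells with vehicle, 0.73 in control cells with FOLFIRINOX and 2.09 in control cells with vehicle. The ratio of FADS1 to FADS2 was 3.40 in E5 cells with FOLFIRINOX, 2.81 in E5 cells with vehicle, 3.47 in control cells with FOLFIRINOX and 3.22 in control cells with vehicle. For ELOVL6 to ELOVL5 it was -2.19 in E5 cells with FOLFIRINOX, -2.45 in E5 cells with vehicle, -1.98 in control cells with FOLFIRINOX and -2.77 in control cells with vehicle. The ratio of SCD to FASN was lower in all drug libraries than in all vehicle libraries of the same kind of cells. For ELOVL6 to ELOVL5 the drug libraries were all above the vehicle libraries in control cells, but the groups overlapped in E5 cells.

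The genes around the pathway were described by lists, whose counts stand beside the 27.3% lower and 25% higher of all tested genes in E5 cells and the 32.7% lower and 32.6% higher in control cells. Of 9 tested genes that supply citrate, acetyl-CoA and NADPH, 7 fell with the drug in E5 cells and 8 in control cells, and 0 rose in either, with median log2 fold changes of -0.573 in E5 cells and -0.798 in control cells, where those of all tested genes were 0.00341 and 0.00438. IDH1, the cytosolic NADP-dependent isocitrate dehydrogenase, fell with log2 fold changes of -1.49 ± 0.0627 (SE; adjusted p = 3.01e-11) in E5 cells and -2.57 ± 0.0673 (SE; adjusted p = 2.63e-14) in control cells. PGD, of the pentose phosphate pathway, fell with log2 fold changes of -1.36 ± 0.0683 (SE; adjusted p = 1.86e-10) in E5 cells and -1.22 ± 0.0683 (SE; adjusted p = 1.8e-10) in control cells. SLC25A1, the mitochondrial citrate carrier, fell with log2 fold changes of -0.85 ± 0.0876 (SE; adjusted p = 5.95e-07) in E5 cells and -1.17 ± 0.0899 (SE; adjusted p = 7.3e-09) in control cells. ME1, malic enzyme, was higher in E5 than in control cells, with log2 fold changes of 1.22 ± 0.0756 (SE; adjusted p = 5.79e-10) under FOLFIRINOX and 0.65 ± 0.0745 (SE; adjusted p = 1.71e-06) under vehicle.

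Among the 14 tested regulators, 6 fell and 3 rose with the drug in E5 cells, with a median of -0.141, and 9 fell and 2 rose in control cells, with a median of -0.296. SREBF1 fell with log2 fold changes of -2.09 ± 0.109 (SE; adjusted p = 2.9e-10) in E5 cells and -2.88 ± 0.12 (SE; adjusted p = 5.77e-12) in control cells. SREBF2 fell with log2 fold changes of -1.71 ± 0.0816 (SE; adjusted p = 1.12e-10) in E5 cells and -2.27 ± 0.0836 (SE; adjusted p = 1.56e-12) in control cells. INSIG1, which holds the SREBP complex in the endoplasmic reticulum, fell with log2 fold changes of -2.002 ± 0.0697 (SE; adjusted p = 3.74e-12) in E5 cells and -2.35 ± 0.0729 (SE; adjusted p = 2.44e-13) in control cells. PPARG, a nuclear receptor known for adipocyte formation, was higher in E5 than in control cells, with log2 fold changes of 2.08 ± 0.115 (SE; adjusted p = 1.42e-10) under FOLFIRINOX and 3.16 ± 0.178 (SE; adjusted p = 1.62e-10) under vehicle. PPARG rose with the drug in edgeR's test, by 1.47 ± 0.112 (SE; adjusted p = 2.23e-08) in E5 cells on the log2 scale. In control cells it rose by 2.55 ± 0.185 (SE; adjusted p = 3.76e-09). Its level in control cells with vehicle was low, at 1.11 ± 0.48 CPM (SD, n = 3).

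Other enzymes of synthesis, elongation and desaturation numbered 17 tested, of which 8 fell and 3 rose with the drug in E5 cells, with a median of -0.191, and 10 fell and 3 rose in control cells, with a median of -0.302. ACACB, the carboxylase of the mitochondrial membrane, fell with log2 fold changes of -1.16 ± 0.105 (SE; adjusted p = 1.43e-07) in E5 cells and -1.50 ± 0.106 (SE; adjusted p = 2.82e-09) in control cells. HACD1, a dehydratase of the elongation cycle, rose with log2 fold changes of 1.10 ± 0.115 (SE; adjusted p = 6.73e-07) in E5 cells and 1.57 ± 0.11 (SE; adjusted p = 2.36e-09) in control cells. SCD5, another stearoyl-CoA desaturase, was lower in E5 than in control cells, with log2 fold changes of -0.56 ± 0.083 (SE; adjusted p = 2.27e-05) under FOLFIRINOX and -1.17 ± 0.0791 (SE; adjusted p = 1.78e-09) under vehicle. ELOVL7, an elongase of long-chain acids, was higher in E5 cells, with log2 fold changes of 1.17 ± 0.11 (SE; adjusted p = 1.28e-07) under FOLFIRINOX and 1.78 ± 0.129 (SE; adjusted p = 4.77e-09) under vehicle.

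Downstream, 13 of the 21 genes of glycerolipid assembly and droplets fell and 4 rose with the drug in E5 cells, with a median of -0.465, and 16 fell and 4 rose in control cells, with a median of -0.541. LPCAT1, which remodels phosphatidylcholine, fell with log2 fold changes of -0.91 ± 0.0616 (SE; adjusted p = 5.43e-09) in E5 cells and -1.25 ± 0.0638 (SE; adjusted p = 6.36e-11) in control cells. LPCAT2, of the same family, fell with log2 fold changes of -1.17 ± 0.0747 (SE; adjusted p = 2.89e-09) in E5 cells and -1.54 ± 0.0841 (SE; adjusted p = 1.34e-10) in control cells, the value in control cells being -0.53 on FPKM with a pseudocount of 1. LPIN1, a phosphatidate phosphatase, fell in E5 cells by 1.04 ± 0.0576 (SE; adjusted p = 5.66e-10) on the log2 scale. In control cells LPIN1 was also lower with the drug, averaging 128 ± 5.5 CPM with FOLFIRINOX and 266.2 ± 8.78 with vehicle (SD, n = 3 each). PLIN2, a coat protein of lipid droplets, rose in control cells by 2.79 ± 0.124 (SE; adjusted p = 1.28e-11) on the log2 scale. In E5 cells PLIN2 was also higher with the drug, averaging 5.44 ± 0.577 CPM with FOLFIRINOX and 1.44 ± 0.279 with vehicle (SD, n = 3 each).

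Of the 12 other acyl-CoA synthetases and binding proteins, 3 fell and 0 rose in E5 cells, a share of falls near the 27.3% of all tested genes, with a median of -0.00761, and 6 fell and 3 rose in control cells, with a median of -0.191. ACSL5, a relative of ACSL3, averaged 10.7 ± 0.85 CPM in E5 cells with FOLFIRINOX, 21.9 ± 0.283 in E5 cells with vehicle, 2.07 ± 0.571 in control cells with FOLFIRINOX and 0.675 ± 0.243 in control cells with vehicle (SD, n = 3 each). It fell in E5 cells and rose in control cells, with log2 fold changes of -1.04 ± 0.116 (SE; adjusted p = 1.4e-06) in E5 cells and 1.59 ± 0.262 (SE; adjusted p = 4.89e-05) in control cells, and the difference of -2.63 ± 0.284 (SE; adjusted p = 6.1e-06) was -1.07 on FPKM with a pseudocount of 1. Of the 10 tested uptake genes, 3 fell and 3 rose in E5 cells, with a median of 0.0438, and 3 fell and 1 rose in control cells, with a median of -0.344. These shares of falls were near the 27.3% and 32.7% of all tested genes in E5 and control cells. SLC27A1, a fatty acid transport protein, fell with log2 fold changes of -1.16 ± 0.212 (SE; adjusted p = 0.000224) in E5 cells and -1.77 ± 0.207 (SE; adjusted p = 1.09e-06) in control cells, which on FPKM with a pseudocount of 1 were -0.66 in E5 cells and -0.40 in control cells. Its level was low, averaging 1.31 CPM with FOLFIRINOX and 2.92 with vehicle in E5 cells. In control cells these averages were 1.05 and 3.54 CPM.

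Of 24 tested genes of beta-oxidation, 13 fell and 0 rose in E5 cells, with a median of -0.264, and 15 fell and 2 rose in control cells, with a median of -0.248. Of all tested genes, 27.3% fell and 25% rose in E5 cells, with a median of 0.00341, and 32.7% fell and 32.6% rose in control cells, with a median of 0.00438. HADH, of the mitochondrial pathway, fell with log2 fold changes of -0.76 ± 0.0703 (SE; adjusted p = 1.63e-07) in E5 cells and -1.17 ± 0.073 (SE; adjusted p = 6.48e-10) in control cells. HSD17B4, of the peroxisomal pathway, fell with log2 fold changes of -0.59 ± 0.0613 (SE; adjusted p = 6.24e-07) in E5 cells and -1.13 ± 0.0621 (SE; adjusted p = 1.46e-10) in control cells. On FPKM HSD17B4 was not called in E5 cells, at -0.33, and was -0.64 in control cells. CPT2, of the carnitine shuttle into mitochondria, fell in E5 cells by 0.97 ± 0.0869 (SE; adjusted p = 1.17e-07) on the log2 scale.

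**Figure D5:**
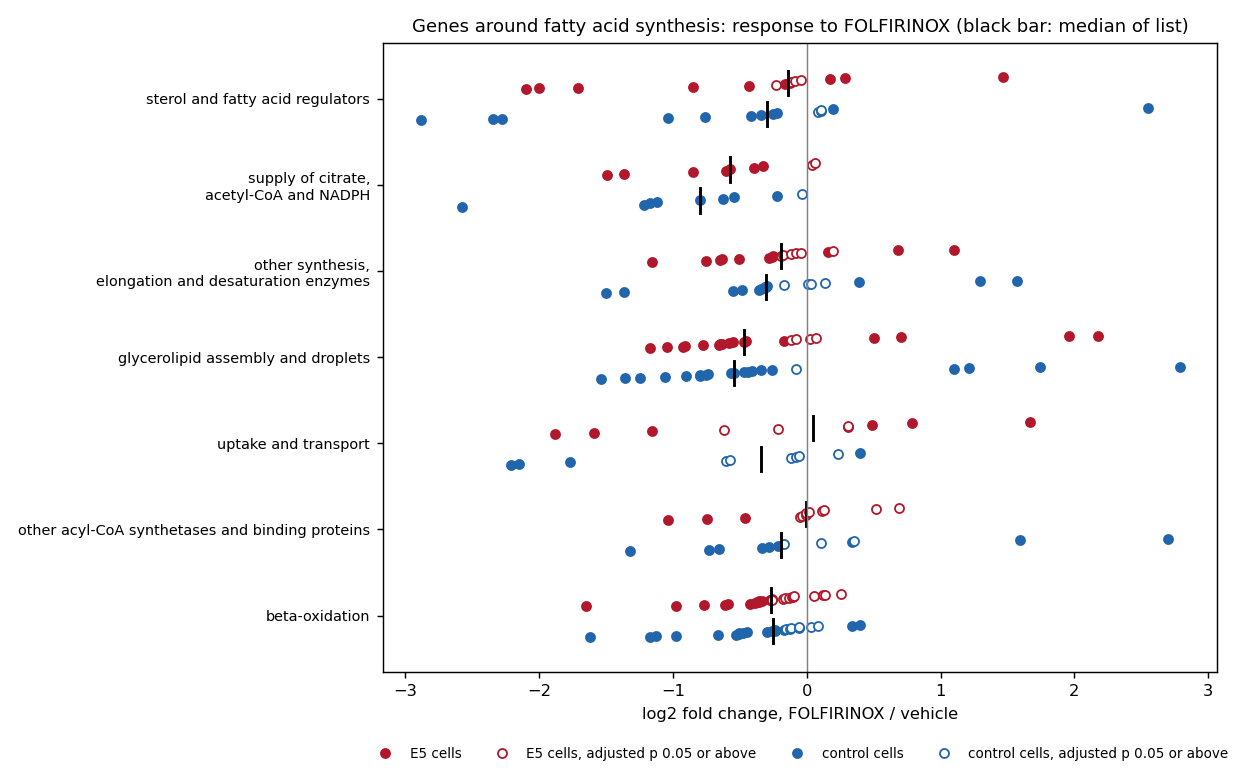
Log2 fold change of FOLFIRINOX against vehicle for the tested genes of each list, 1 point per gene (open where not called) and a bar for the median, in E5 cells and in control cells. The supply list has medians of -0.573 in E5 cells and -0.798 in control cells, while the uptake list scatters on both sides of 0.

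Genes whose pattern over the 12 libraries lay nearest to those of FASN and SCD were sought among 9517 genes, by the root-mean-square difference of centred log2 CPM. HSPA2, UBE3B, PEG10, SFXN2 and SIDT2 were nearest to FASN, at 0.147 to 0.175 log2 units, and the closest of the other 9 genes were ACACA, at rank 63, and ACLY, at rank 90. INSIG1, PTCH1, IDH1 and MAGED1 were among the 5 nearest to SCD, at 0.19 to 0.331, and FASN was at rank 56. FADS1 was far from both, at rank 7034 from FASN and 5155 from SCD.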

How the data were processed

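RNA of KP4 cells was sequenced from 4 GEO samples, with a KAPA mRNAseq kit according to the labels' protocols. Reads were aligned with STAR 2.5.1b to GRCh38, per the submitters' processing notes. The deposited counts were stranded, unscaled reads per gene. The authors' FPKM values scale fragments by gene length and depth, and the authors' rlog values are regularised log2 counts, as the file headers name them. Their programs are not given in the sources used here. Columns were matched to samples by name, and all 12 were used.

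Reads outside genes (unmapped 1.47 to 1.7%, multimapping 10.8 to 12.8%, without a feature 6.63 to 8.52%, ambiguous 2.86 to 3.2%) stayed out of library sizes. Counts were tested by quasi-likelihood F tests in edgeR 4.0.16 (R 4.3.3), on 1 model of the 4 group means, after TMM scaling and filterByExpr, with p-values adjusted over 15636 genes at 0.05. The biological coefficient of variation was 7.37%. Standard errors are the absolute log2 fold change over the root of F, and intervals are 95%. Pairs of libraries within a group spread 1.46 to 13.3 times the counting variance, so none was counted as a copy. Alternatives used limma 3.58.1 on log2(FPKM + 1), log2(FPKM + 0.1) and rlog values, DESeq2 1.42.0, other scalings and filters, the compared groups only, a replicate block and leaving out each library.

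The named genes were the 10 members, at most 3 genes with the smallest adjusted p per list and comparison, SREBF1, SREBF2 and INSIG1, and the 5 genes nearest to FASN and to SCD at a mean CPM of at least 10. Not every gene named by the rule is reported here. Members, lists and tests were chosen with earlier results of these data known.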

Additional observations from a re-analysis of the deposited data

Results flagged for a closer look

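The drug response of 5 of the 10 genes differed between E5 and control cells in edgeR's test of the difference itself, as log2 response in E5 cells minus that in control cells. The differences were 0.614 for ACACA, 0.409 for ACSL3, 0.289 for ELOVL5 and 0.275 for SCD, whose falls were smaller in E5 cells, and -0.624 for FADS2, whose fall was larger. ACACA alone kept its call in all alternatives run. Groups of 3 libraries were not searched for libraries that stand apart.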

How the results depend on the processing

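Of 1090 values of the 10 genes under alternative settings, 1041 kept their side of the threshold, 39 lost and 10 gained a call, and 0 called values reversed, while the drug response of ELOVL6 in E5 cells, not called, turned positive on FPKM. The counts of 9 genes lower with the drug in E5 and in control cells were within 1.5 times under all alternatives. On FPKM values with either pseudocount, 1 gene was higher with the drug in control cells (ELOVL6), 3 were higher in E5 than in control cells under FOLFIRINOX, and the difference of responses called 1 gene higher and 0 lower. That difference called 2 genes higher and 2 lower with library totals alone, 2 lower on rlog values and, leaving out 1 library at a time, 2 to 4 higher (2 without replicate 1 of control vehicle) and 1 to 2 lower (2 without replicate 1 of E5 FOLFIRINOX and without replicate 3 of control vehicle). Library totals moved the median of all genes by 0.136 in control cells with the drug, and FPKM by 0.134 to 0.184 there, by -0.102 to -0.126 for the difference of responses, and by -0.121 (pseudocount 0.1) for E5 against control cells under FOLFIRINOX. Genes called higher and lower numbered 5094 and 5109 for the drug in control cells, against 6206 and 3991 with library totals and 5969 and 2949 on FPKM. For the drug in E5 cells they numbered 3909 and 4265, against 3896 and 2775 on FPKM with a pseudocount of 0.1. E5 against control cells under FOLFIRINOX gave 4170 and 4318, against 2638 and 4821 on FPKM, and the difference of responses 2080 and 1933, against 1596 and 2448 with library totals and 814 and 2258 on FPKM. The rlog values are shrunken by construction, so that SCD was at -1.72 in control cells. Replicate numbers did not pair the libraries. Of 18 same-numbered pairs 7 correlated over 0.1 (-0.604 to 0.502), and 3 of 12 libraries correlated best with their own number. Pairs of different numbers ran from -0.602 to 0.695, the highest being E5 vehicle replicate 1 with control FOLFIRINOX replicate 2. A block by replicate number does not take up such a likeness across numbers. With the replicate number as a block, 9 genes were lower with the drug in each kind of cell and the difference of responses called 3 higher and 1 lower. The cause of these changes was not tested. FADS2, at 5.15 to 5.63 CPM in E5 cells with FOLFIRINOX, had the fewest reads, 79 to 100 per library.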
